A study of Rattus norvegicus with 6 samples.

Results

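The matrix metalloproteinases (Mmp), the tissue inhibitors of metalloproteinases (Timp), the ADAMTS proteases and the ADAMTS-like proteins (Adamtsl) were examined in the pulmonary veins (PVs) of neonatally operated rats. A gene was a member if its symbol was Mmp, Timp, Adamts or Adamtsl followed directly by a digit and its mean expression over the 6 libraries was above 0. Of the 17833 genes in the expression table, 46 met this rule, namely 18 Mmp, 4 Timp, 19 Adamts and 5 Adamtsl genes. Mmp24os met it by its letters only, because it is named after the Mmp24 locus it overlaps and not for a protease. Expression was tested for 44 members. Mmp13 and Mmp27 had a mean under 0.1 FPKM (fragments counted on a gene, scaled by gene length and library total) and are given by their values alone.

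Bulk RNA-seq was performed on PV tissue of the right upper lobe from 3 Sprague-Dawley rats that had undergone bilateral PV banding (BPVB group) and 3 that had the same operation without constriction (sham group). All 6 rats were wild type, were operated on at postnatal day 1 and were sampled at postnatal day 21. The labels name neither the sex nor the litter of the rats, and each library is listed as a sample of its own. The libraries held 23439506 to 29725808 counted fragments, and all 3 BPVB totals were above the sham totals. The tissue carried the markers of a PV wall, with summed levels of 3883 to 3932 FPKM in the BPVB libraries and 4206 to 4286 in the sham libraries for 6 smooth muscle genes, 971 to 985 FPKM in the BPVB libraries and 1062 to 1070.5 in the sham libraries for 6 endothelial genes and 14435 to 14858 FPKM in the BPVB libraries and 19084 to 19450.3 in the sham libraries for 7 genes of the myocardial sleeve around the vein. It also held other cells, since 8 alveolar type 2 epithelial genes summed to 552 to 598 FPKM in the BPVB libraries and 61.5 to 63.0 in the sham libraries. In bulk tissue, fewer cells of a type and less RNA per cell cannot be told apart.

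MMPs are zinc-dependent endopeptidases that cleave collagens, elastin and other matrix proteins and are mostly secreted as inactive proenzymes. TIMPs bind the active site of MMPs, and TIMP3 also inhibits ADAMTS proteases and is held in the matrix. ADAMTS proteases carry thrombospondin repeats and process proteoglycans, procollagens and von Willebrand factor, whereas ADAMTS-like proteins lack the protease domain and some bind microfibrils. In vessel walls these families are known for matrix turnover during growth and injury.

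Several inducible MMP genes lie in a cluster on rat chromosome 8. Promoters are shown because genes of this cluster, though not adjacent ones, moved in opposite directions. In RefSeq order the cluster runs through Mmp13, Mmp12, Mmp3, Mmp8 and Mmp27, with Mmp1b, Mmp1 and Mmp10, absent from the expression table, between them. The 150 bases before the annotated start of 4 of them follow, from RefSeq on GRCr8, 5′ to 3′ and all on the plus strand. The intervals are chr8:12782679-12782828 for Mmp13, chr8:12866502-12866651 for Mmp12, chr8:12925131-12925280 for Mmp3 and chr8:13008740-13008889 for Mmp8. Capitals mark matches to the AP-1 motif TGANTCA and the TATA box TATAAA on either strand.
Mmp13: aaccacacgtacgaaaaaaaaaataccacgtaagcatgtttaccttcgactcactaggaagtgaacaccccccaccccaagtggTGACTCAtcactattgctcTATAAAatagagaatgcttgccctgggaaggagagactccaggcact
Mmp12: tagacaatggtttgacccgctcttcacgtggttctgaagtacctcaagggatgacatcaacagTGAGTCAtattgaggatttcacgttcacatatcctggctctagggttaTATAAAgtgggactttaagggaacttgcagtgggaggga
Mmp3: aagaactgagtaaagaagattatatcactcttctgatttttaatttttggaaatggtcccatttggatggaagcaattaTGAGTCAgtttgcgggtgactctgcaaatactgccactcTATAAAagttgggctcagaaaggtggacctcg
Mmp8: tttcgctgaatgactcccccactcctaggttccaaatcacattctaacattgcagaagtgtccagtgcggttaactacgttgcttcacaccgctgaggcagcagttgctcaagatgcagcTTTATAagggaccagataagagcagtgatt
Mmp13, Mmp12 and Mmp3 carried both matches, and Mmp8 carried a TATA box match on the minus strand and no AP-1 match. The 2 motifs do not overlap one another in these promoters. Promoters of 300 bases (250 before and 50 after the start) were given for 34 of the 46 members. Over all 27457 RefSeq promoters of that length, 7.33% held the AP-1 motif and 14.3% held the TATA box, and over the 12200 promoters of tested genes 5.18% and 7.84% did. Among the members these were 3 of 34 for AP-1, the 3 genes shown, and 8 of 34 for the TATA box, the 4 genes shown with Adamts1, Adamts10, Adamts7 and Adamtsl2. The GC box GGGCGG, which overlaps neither motif in its letters, was held by 34.9% of all promoters, 58.1% of those of tested genes and 58.8% of those of the members (20 of 34, among them Timp1, Timp2 and Timp3), near the share of tested genes. By call, AP-1 was in the promoters of 2 of 11 higher and 0 of 6 lower members. It was in 0 of 15 not called and 1 of 2 not tested. A match is a run of letters and not a measured binding site, and a link between motifs and direction of change was not tested. Members without an entry were Adamts15, Adamts16, Adamts19, Adamts5, Adamts8, Mmp14, Mmp16, Mmp17, Mmp19, Mmp2, Mmp24os and Mmp9.

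Of the 44 tested members, 17 were higher and 6 were lower in the BPVB group and 21 did not pass the test. The test was limma on log2(FPKM + 0.5), two-sided, with Benjamini-Hochberg adjustment over all 15150 genes tested and a threshold of 0.05 on the adjusted p. The higher members were 38.6% of those tested, beside 17.2% of all genes, and the lower members were 13.6%, beside 14.3% of all genes. The members' median log2 fold change was 0.18, against 0.02 over all genes tested, and it was also 0.18 with Mmp3 placed at its lower bound. Among the 35 members with a mean of at least 1 FPKM, 16 were higher and 5 lower, where 19.6% and 17.0% of the 12157 genes at that level were. An absolute log2 fold change above 1 together with the adjusted p was reached by Mmp12 and Adamts4 upward (2.24% of all genes) and by Adamts17 and Mmp8 downward (1.03% of all genes), 4 members in all where 3.27% of all genes passed both. In 30 members the 3 BPVB libraries and the 3 sham libraries did not overlap, 23 of them upward and 7 downward, beside 25.2% and 20.5% of all genes. For a single gene, an exact permutation test of 3 libraries against 3 cannot give a two-sided p under 0.1, so the calls rest on limma's spread shared across genes.

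**Figure D1:**
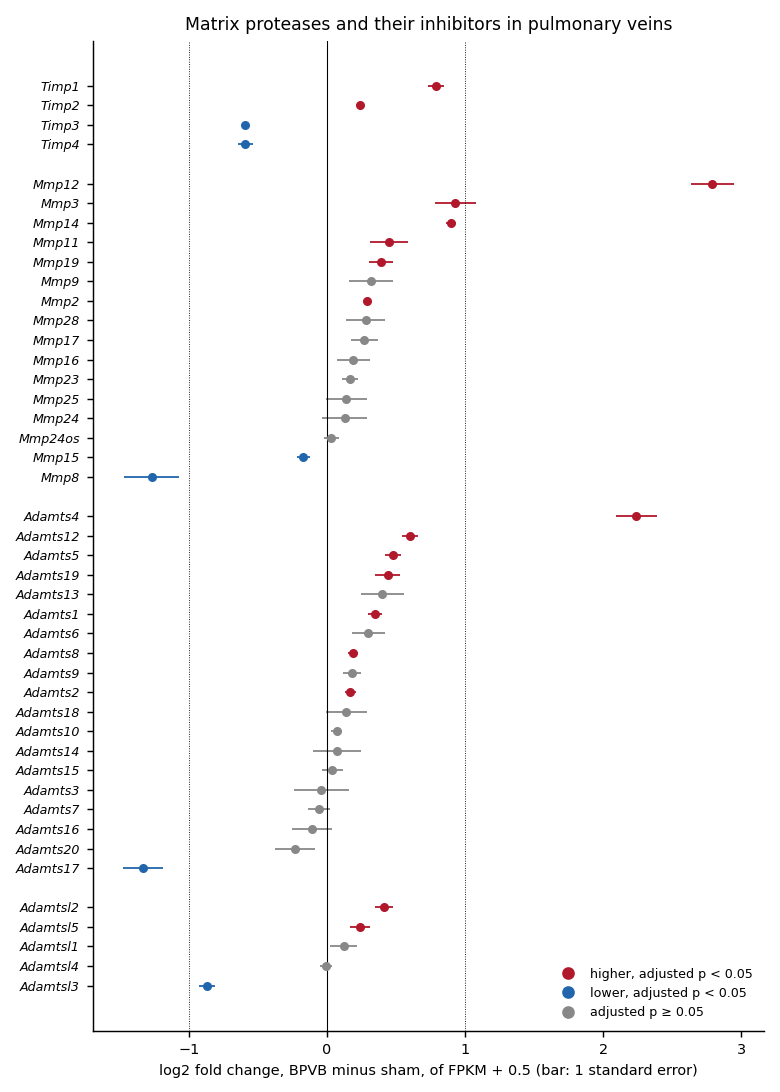
Log2 fold change (BPVB minus sham, of FPKM + 0.5) of the 44 tested members by family, with a bar of 1 standard error, 3 libraries per group and dotted lines at a log2 fold change of 1 in either direction. Red marks the 17 members that were higher and blue the 6 that were lower at an adjusted p under 0.05, and the Timp family is split 2 against 2.

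Expression was uneven across the members. The mean over the 6 libraries was at least 100 FPKM for 3 members (Timp3, Timp2 and Mmp2), between 10 and 100 for 15, between 1 and 10 for 17 and under 1 for 11. Summed over the 17 Mmp protease genes, expression was 333 ± 3.01 FPKM in the BPVB group and 252 ± 2.12 FPKM in the sham group (SD, n = 3 each). The summed Timp expression was 504 ± 7.56 and 547 ± 8.00 FPKM, respectively. The Timp sum over the Mmp sum was therefore 1.51, 1.55 and 1.49 after banding and 2.18, 2.11 and 2.21 after sham surgery, without overlap. Mmp2 and Mmp14 made up most of the Mmp sum. Mmp14 held 26.9% of it in the BPVB group and 19.0% in the sham group. The Adamts sum in the BPVB group was 1.18 times the sham value, and the Adamtsl sum was at 0.956 times the sham value. Such sums describe RNA and not enzyme activity.

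**Figure D2:**
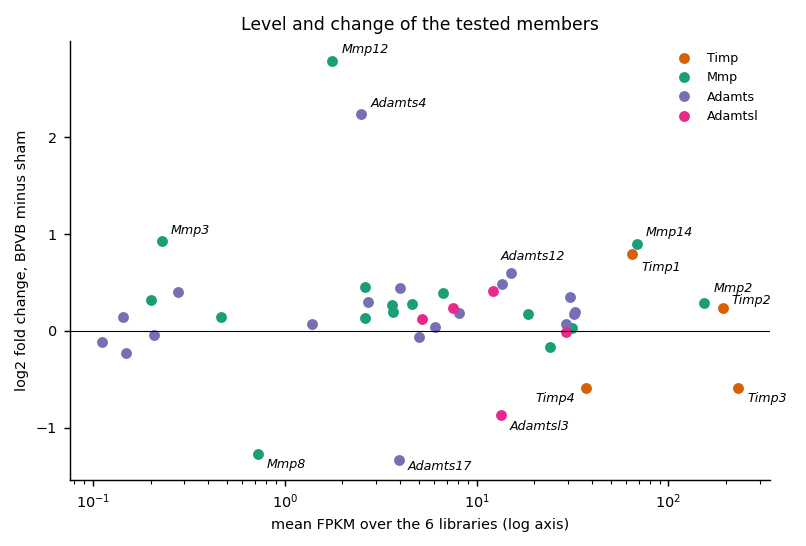
Mean FPKM over the 6 libraries (log axis) against the log2 fold change (BPVB minus sham) of the 44 tested members, coloured by family. Among the 3 members above 100 FPKM, Timp3 lies below 0 and Timp2 and Mmp2 above it, and Mmp12, Mmp3 and Mmp8 are changed members at low expression.

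The 4 inhibitors changed in pairs of opposite direction, and all 4 passed the test. Timp1, the inducible secreted inhibitor, was at 76.4, 87.2 and 83.0 FPKM after banding and 46.9, 44.9 and 49.7 FPKM after sham surgery. Every BPVB library was above every sham library, and expression was 1.74 times as high (log2 fold change 0.79, SE 0.06, adjusted p = 1.2e-05, limma with Benjamini-Hochberg adjustment, as for every adjusted p given here). Timp2, which binds pro-MMP2 and MMP14 in the complex that activates MMP2, was at 215, 207 and 202 FPKM after banding and 174, 175 and 179.8 FPKM after sham surgery. Its rise was small and the groups did not overlap (log2 fold change 0.24, SE 0.03, adjusted p = 4.6e-04).

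Timp3 was the most highly expressed member in the sham group, at 183, 188 and 182 FPKM after banding and 281, 275 and 278 FPKM after sham surgery. The BPVB libraries all lay below the sham libraries, with a mean of 184 ± 2.79 against 278 ± 2.86 FPKM (SD, n = 3), or 0.663 times the sham level (log2 fold change -0.59, SE 0.02, adjusted p = 5.7e-07). Timp4, an inhibitor known from heart and vessels, was at 30.5, 29.8 and 28.9 FPKM after banding and 47.9, 42.2 and 45.3 FPKM after sham surgery. It also fell without overlap, to 0.659 times the sham level (log2 fold change -0.59, SE 0.05, adjusted p = 4.6e-05). The ratio of Timp4 to Timp3 was 0.161 ± 0.00436 in the BPVB group and 0.162 ± 0.00868 in the sham group, a difference smaller than the spread between libraries. Timp3 held 36.6% of the summed Timp expression in the BPVB group and 50.9% in the sham group, whereas Timp1 held 16.3% and 8.63%. By FPKM, Timp2 was the leading inhibitor in the banded veins, at 41.2% in the BPVB group. Timp1, Timp3 and Timp4 lie within the synapsin genes Syn1, Syn3 and Syn2, which reached at most 0.875, 0.233 and 2.21 FPKM in any library.

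**Figure D3:**
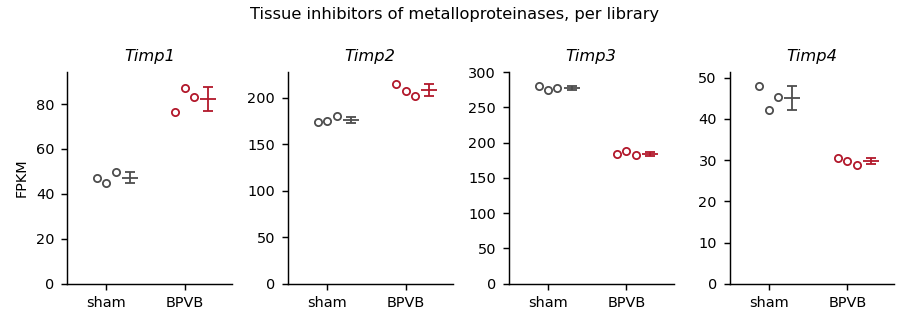
FPKM of the 4 Timp genes in each library (open circles), with the mean and SD of 3 libraries beside them and each vertical axis starting at 0. Timp1 and Timp2 are higher and Timp3 and Timp4 lower in every BPVB library than in any sham library.

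Among the membrane-bound MMPs, 1 of 7 was higher, 1 was lower and 5 did not pass the test. Mmp14, the membrane-type protease that cleaves collagen at the cell surface and activates pro-MMP2, was at 90.6, 86.5 and 91.5 FPKM after banding and 47.5, 48.2 and 48.0 FPKM after sham surgery. The BPVB level was 1.87 times the sham level and the groups lay far apart relative to their spread (log2 fold change 0.90, SE 0.03, adjusted p = 3.6e-07). Its ratio to Timp3 was 0.486 ± 0.0216 in the BPVB group and 0.172 ± 0.00309 in the sham group. Mmp15, another membrane-type protease, fell slightly, from 25.5 ± 0.481 to 22.6 ± 0.531 FPKM (SD, n = 3, log2 fold change -0.17, adjusted p = 0.016). Without BPVB replicate 2 or without sham replicate 1 its adjusted p was 0.052 and 0.054. Mmp16, Mmp17, Mmp23, Mmp24 and Mmp25 had log2 fold changes of 0.13 to 0.27 and did not pass. Mmp17 and Mmp23 were higher in all 3 BPVB libraries even so, and Mmp23 passed without sham replicate 2 (adjusted p = 0.031, 0.056 with all libraries). Both passed with TPM (adjusted p = 0.047 for Mmp17 and 0.034 for Mmp23), and Mmp17 also with voom on the recovered fragments (0.0067). Mmp24os was at 30.2, 32.9 and 32.0 FPKM after banding and 31.4, 32.5 and 29.2 FPKM after sham surgery, with overlapping groups (log2 fold change 0.03, adjusted p = 0.70), and it could share reads with Mmp24, since the strand setting of the counting is not given in the sources used here.

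Of the gelatinases, Mmp2 rose and Mmp9 did not pass the test. Mmp2, the constitutive gelatinase of mesenchymal cells, was at 169, 171 and 169 FPKM after banding and 139, 139 and 137 FPKM after sham surgery. Each group was tight and they did not overlap, with 1.22 times the sham level (log2 fold change 0.29, SE 0.03, adjusted p = 4.1e-05). The ratio of Mmp2 to Timp2 was 0.816 ± 0.0278 in the BPVB group and 0.786 ± 0.0213 in the sham group, with overlapping libraries. Mmp9, the gelatinase of neutrophils and macrophages, was low, at 0.281 ± 0.115 and 0.123 ± 0.0175 FPKM (SD, n = 3). Its BPVB libraries were all above the sham libraries, but only 8 to 31 fragments per library stood behind these values (log2 fold change 0.32, adjusted p = 0.16).

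The macrophage elastase and stromelysin genes of the chromosome 8 cluster were both higher in the banded veins. Mmp12, the macrophage elastase, was at 3.33, 3.21 and 3.87 FPKM after banding and 0.0470, 0.191 and 0 FPKM after sham surgery. Behind these levels were 159, 150 and 206 fragments after banding and 2, 8 and 0 after sham surgery. Expression was 44.3-fold higher in the BPVB group by summed fragments (95% exact interval 23.9 to 93.0, counting error only), and the log2 fold change of 2.79 (SE 0.16, adjusted p = 2.7e-06) is smaller because the pseudocount of 0.5 shrinks low values. The ratio depended on single sham libraries, since sham replicate 2 held 8 of the 10 sham fragments. It was 149 (95% exact interval 40.9 to 1230.1) without sham replicate 2 and 29.5 without sham replicate 3, which had 0 fragments.

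Mmp3, stromelysin 1, which cleaves proteoglycans and activates other proMMPs, was at 0.547, 0.477 and 0.346 FPKM after banding and 0 in all 3 sham libraries. These were 27, 23 and 19 fragments after banding and 0 in each sham library. With 3 fragments per library as the limit that a count of 0 allows, it was at least 6.66-fold higher in the BPVB group, and it passed the test (adjusted p = 0.0014). Its fitted log2 fold change of 0.93 depends on the pseudocount and was 0.54 with a pseudocount of 1 and 2.46 with 0.1.

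Mmp13, the interstitial collagenase of rodents, was at 0.0720, 0.177 and 0 FPKM after banding and 0 in all 3 sham libraries, that is 5, 12 and 0 fragments after banding and 0 in each sham library. It was detected in 2 of 3 BPVB libraries and in no sham library, where the limit of 3 fragments was 0.0484 to 0.0492 FPKM, so it was at least 1.70-fold higher by group means, with overlapping groups and no test. This bound rested on BPVB replicate 2, and without it the BPVB mean of 0.0360 FPKM was under the sham limit. Mmp8, the neutrophil collagenase, moved the other way, at 0.401, 0.0547 and 0.216 FPKM after banding and 1.29, 1.43 and 0.959 FPKM after sham surgery. All BPVB libraries were below the sham libraries on 15, 2 and 9 fragments after banding and 43, 47 and 32 after sham surgery, and the sham level was 5.45 times the BPVB level by summed fragments (95% exact interval 3.55 to 8.67, log2 fold change -1.27, SE 0.20, adjusted p = 0.0014). BPVB replicate 1 held 15 of the 26 BPVB fragments, and without it the ratio was 8.71 (4.70 to 17.9). With a pseudocount of 1 its log2 fold change was -0.87, short of the fold threshold. Mmp27, the last of these cluster genes, had 1, 0 and 1 fragments after banding and 0, 0 and 10 after sham surgery. Nearly all of its fragments were thus in 1 sham library.

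**Figure D4:**
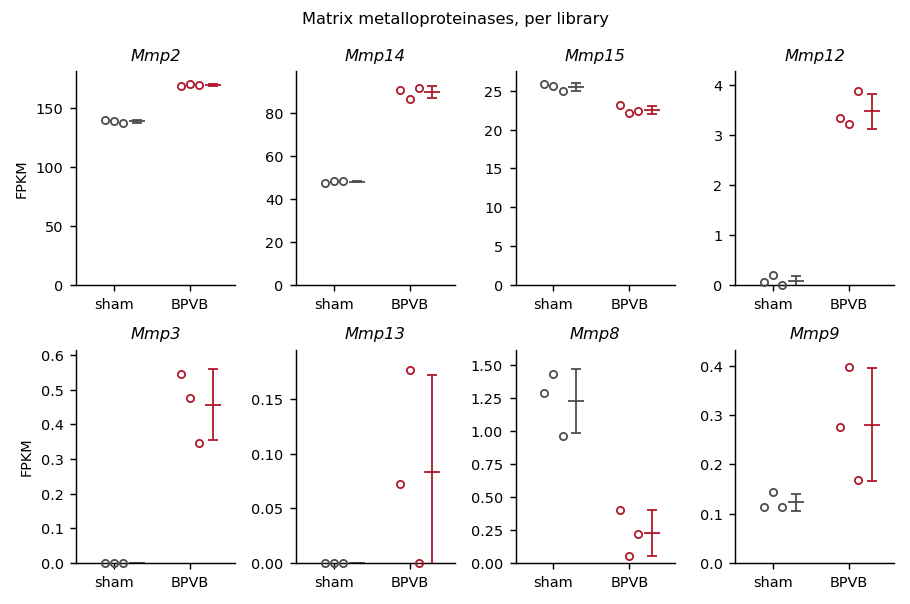
FPKM of 8 Mmp genes in each library (open circles), with the mean and SD of 3 libraries beside them and each vertical axis starting at 0, where the SD bar of Mmp13 is cut. Mmp14 and Mmp12 separate the groups upward and Mmp8 downward, Mmp3 is at 0 in all sham libraries, and Mmp13 overlaps at 0.

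The genes of immune cells moved beside these low members. Of 9 tested macrophage markers 8 were higher and 0 lower, and Cd163 (-0.07) did not pass. The summed level of the 9 was 714 to 732 FPKM in the BPVB libraries and 253 to 259.8 in the sham libraries. Lyz2 supplied most of this sum, and without it the other 8 genes summed to 129 to 139.8 FPKM after banding and 89.4 to 95.6 FPKM after sham surgery. Of 6 tested neutrophil markers 0 were higher and 3 lower (S100a8 -1.45, S100a9 -1.20 and Ngp -1.74), while Csf3r (0.37), Mpo (0.23) and Cxcr2 (-0.22) did not pass, with a summed level of 6.78 to 10.3 FPKM in the BPVB libraries and 20.5 to 23.6 in the sham libraries. Most of this sum was in the 3 lower genes, and the other 5 listed genes summed to 0.876 to 1.43 FPKM after banding and 0.652 to 1.09 FPKM after sham surgery, with overlapping libraries. Of the defining neutrophil genes, Elane had 2 fragments in 1 sham library and 0 elsewhere, and Ltf had 6 fragments in 1 BPVB library and 0 elsewhere, so neither was detected in most libraries of either group. Alveolar type 2 markers, 8 of 8 higher, and proliferation markers, 6 of 6 higher with 35.03 to 36.3 FPKM in the BPVB libraries and 12.1 to 14.7 in the sham libraries, moved in the same direction as the rising members. The part of these cells in the changes of Mmp12, Mmp3 and Mmp8 was not tested.

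Of the remaining secreted MMPs, Mmp19, a basement membrane protease, was higher in all BPVB libraries (7.65 ± 0.301 against 5.75 ± 0.562 FPKM, log2 fold change 0.39, adjusted p = 0.0089). Mmp11, stromelysin 3, which furin activates inside the cell, was at 3.09 ± 0.388 and 2.14 ± 0.350 FPKM (log2 fold change 0.45, adjusted p = 0.036). This call depended on single libraries: without BPVB replicate 1 or 3 or sham replicate 1 or 3 the adjusted p was 0.087, 0.12, 0.063 and 0.11. It also overlaps Chchd10, which was at 274 ± 18.4 and 316 ± 12.0 FPKM and fell, so its low values are uncertain. Mmp28, epilysin, did not pass the test (log2 fold change 0.28, adjusted p = 0.16) and passed without sham replicate 3 (adjusted p = 0.047).

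The ADAMTS proteases that cleave aggrecan and versican, the hyalectan group, had 4 of 7 members higher and 3 that did not pass the test. Adamts4, aggrecanase 1, was at 5.12, 3.59 and 4.72 FPKM after banding and 0.479, 0.498 and 0.654 FPKM after sham surgery. The lowest BPVB library was over the highest sham library by a wide margin, and expression was 8.23 times as high (log2 fold change 2.24, SE 0.15, adjusted p = 7.6e-06).

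Adamts1, an early-response protease of vessel walls, was at 36.5, 33.5 and 33.8 FPKM after banding and 27.7, 27.5 and 25.9 FPKM after sham surgery. It did not overlap between groups (log2 fold change 0.35, SE 0.05, adjusted p = 8.0e-04). Its neighbour on chromosome 11, Adamts5 or aggrecanase 2, also rose, from 11.2 ± 0.503 to 15.8 ± 0.486 FPKM (log2 fold change 0.48, adjusted p = 3.3e-04). Adamts8, known from lung and heart, was at 34.4, 34.4 and 34.9 FPKM after banding and 30.6, 29.8 and 30.5 FPKM after sham surgery. This was a small separated rise (log2 fold change 0.19, SE 0.04, adjusted p = 0.0057). Adamts15, which adjoins Adamts8 on chromosome 8, had overlapping groups (log2 fold change 0.04, adjusted p = 0.71), and Adamts9 (0.18, adjusted p = 0.067) and Adamts20 (-0.23, adjusted p = 0.27) did not pass. Adamts9 was higher and Adamts20 lower in every BPVB library than in any sham library, and both passed with voom on the recovered fragments (adjusted p = 0.010 for Adamts9 and 0.039 for Adamts20) and Adamts9 also with TPM (0.041). Of the substrates, Vcan, the versican gene, fell (log2 fold change -0.19) and Acan, the aggrecan gene, rose (0.53) at a mean of 0.171 FPKM.

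The procollagen N-proteinases trim the amino-terminal propeptides of fibrillar procollagens. Adamts2, the main one, was at 33.5, 34.9 and 33.9 FPKM after banding and 29.4, 30.7 and 30.5 FPKM after sham surgery. All 3 BPVB libraries were above the sham libraries by a small step (log2 fold change 0.17, SE 0.04, adjusted p = 0.012). Adamts3 and Adamts14, the other two of this group, were at means of 0.209 and 1.39 FPKM with overlapping groups, and the sign of their difference changed with the processing.

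Among the other ADAMTS proteases, 2 were higher, 1 was lower and 6 did not pass. Adamts12, which cleaves cartilage oligomeric matrix protein, was at 18.2, 17.8 and 19.2 FPKM after banding and 12.5, 11.9 and 11.5 FPKM after sham surgery. The groups were apart and the BPVB level was 1.53 times the sham level (log2 fold change 0.60, SE 0.06, adjusted p = 7.9e-05). Adamts19, an orphan protease, rose from 3.32 ± 0.237 to 4.66 ± 0.180 FPKM (log2 fold change 0.44, adjusted p = 0.0065). Adamts17, which is linked to fibrillin microfibrils, was at 2.34, 2.23 and 1.53 FPKM after banding and 6.05, 6.32 and 5.13 FPKM after sham surgery. It fell in every BPVB library, and the sham level was 2.87 times the BPVB level (log2 fold change -1.33, SE 0.15, adjusted p = 1.6e-04), the largest fall among members with a mean of at least 1 FPKM. Adamts6, Adamts7, Adamts10, Adamts13, Adamts16 and Adamts18 had log2 fold changes of -0.11 to 0.40, and of these Adamts10 and Adamts13, the protease of von Willebrand factor, were higher in all 3 BPVB libraries without passing.

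The genes of the ADAMTS-like proteins, some of which bind fibrillin microfibrils, changed in both directions, with 2 of 5 higher and 1 lower. Adamtsl3 was at 9.24, 9.54 and 9.15 FPKM after banding and 18.1, 17.0 and 17.2 FPKM after sham surgery. The BPVB libraries were all near 0.534 times the sham mean (log2 fold change -0.87, SE 0.06, adjusted p = 6.3e-06), and the overlapping gene Saxo2 reached at most 0.780 FPKM. Adamtsl2, which binds fibrillin and latent TGF-β binding protein, rose from 10.4 ± 0.425 to 14.0 ± 0.769 FPKM (log2 fold change 0.41, adjusted p = 0.0014). Adamtsl5 was also called (log2 fold change 0.24, adjusted p = 0.037), but its adjusted p was 0.11 (BPVB replicate 1 left out), 0.10 (BPVB replicate 3 left out), 0.093 (sham replicate 2 left out) and 0.098 (sham replicate 3 left out). Adamtsl4, at 29.1 FPKM the highest of the family, had overlapping groups (log2 fold change -0.01), and Adamtsl1 did not pass (0.12, adjusted p = 0.41).

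**Figure D5:**
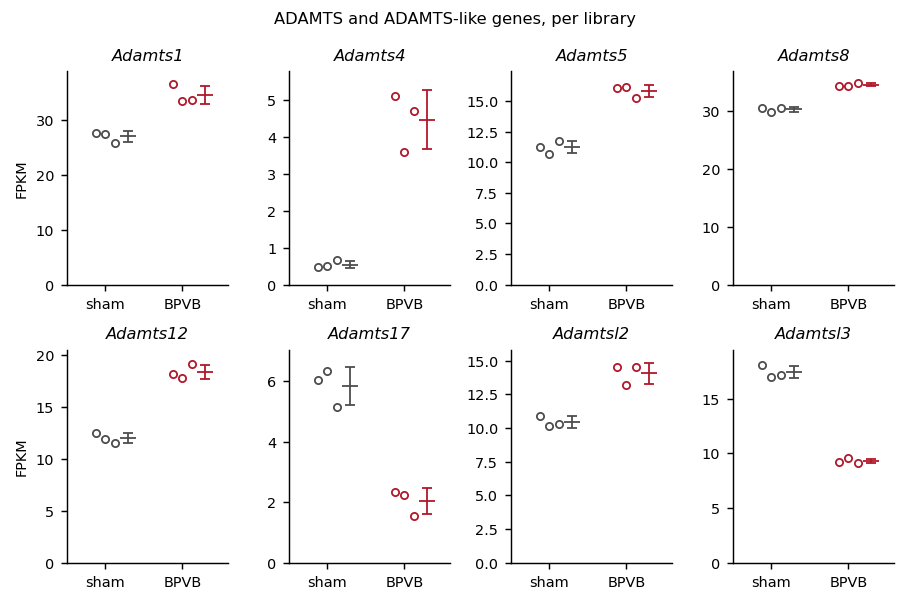
FPKM of 6 Adamts and 2 Adamtsl genes in each library (open circles), with the mean and SD of 3 libraries beside them and each vertical axis starting at 0. Adamts4 and Adamts12 are higher and Adamts17 and Adamtsl3 lower in every BPVB library than in any sham library.

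The other genes of pericellular proteolysis were set beside the members. Of 68 listed genes that are no member, 58 were tested, and 31 (53.4%) were higher and 5 (8.62%) lower in the BPVB group, beside 17.2% and 14.3% of all genes, with a median log2 fold change of 0.22. The 5 lower genes were Pcsk6 (-0.88), Tll1 (-0.50), Vcan (-0.19), Adam10 (-0.16) and Cav1 (-0.11), of which the last 3 were named after their values were seen. The plasminogen system, which activates several proMMPs, had 4 of 10 tested genes higher and 0 lower. Among them were Plau (0.61) and Plat (0.22), the plasminogen activators, and Serpine2 (0.38), an inhibitor of both.

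Of 13 tested regulators, 6 were higher and 2 lower. Thbs1 (0.98) and Thbs2 (0.34), thrombospondins that bind MMP2 for uptake by LRP1, rose with Sdc4 (0.75), a heparan sulphate proteoglycan of the cell surface. Of the proprotein convertases, Pcsk6 fell and Furin (0.27) and Pcsk5 (0.32, adjusted p = 0.0497) were higher, the latter 2 named after their values were seen. Reck, Bsg, Pcsk7, Tfpi2 and Cd44 did not pass the test. Of 16 other matrix proteases, 10 were higher and 2 lower, led by Adam19 (1.15), a membrane sheddase, and Ctss (0.86), a cathepsin of phagocytes. Tll1, a procollagen C-proteinase, fell, and Adam12, Adam33, Bmp1 and Ctsb did not pass. Cst3 (0.41), a cathepsin inhibitor, Pcolce (0.34), an enhancer of procollagen C-proteinases, and Cstb (0.15) were higher, and Cst6 did not pass (-0.45). Of 15 tested substrates, 8 were higher and 1, Vcan, lower. By fitted log2 fold change Eln (0.65), Fn1 (0.53), Acan (0.53) and Col1a2 (0.43) changed most among those called. By mean FPKM, Acan was 5.92 times as high after banding (0.292 against 0.0494) and Eln 1.57 times, because the pseudocount shrinks low values.

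The levels of the resident cells' genes also moved. Of 7 fibroblast markers 4 were higher and 2 lower (4041 to 4046 FPKM in the BPVB libraries and 3555 to 3582 in the sham libraries). Col1a1 and Col1a2, which are also listed as substrates, carried the higher sum. The other 5 summed to 1672 to 1719 FPKM after banding and 1762 to 1796 FPKM after sham surgery. Among these 5, Dcn (-0.24) and Lum (-0.19) were lower, Pdgfra (0.34) and Dpt (0.20) were higher and Pi16 (0.04) did not pass. Of 6 smooth muscle markers 1 was higher and 4 lower, of 6 endothelial markers 0 were higher and 3 lower, and of 7 myocardial sleeve markers 1 was higher and 6 lower, with the sums given at the opening. Mesothelial markers fell in 3 of 3 tested genes (1.88 to 2.06 FPKM in the BPVB libraries and 3.57 to 4.75 in the sham libraries), and lymphocyte markers were higher in 1 of 7 and lower in 0 (12.0 to 12.5 FPKM in the BPVB libraries and 8.24 to 8.87 in the sham libraries). Cd4 was the gene higher, and without it the lymphocyte sums overlapped (3.70 to 4.03 FPKM after banding and 3.55 to 3.94 FPKM after sham surgery). Airway markers were higher in 1 and lower in 1 of 3 tested (105 to 118 FPKM in the BPVB libraries and 136 to 143 in the sham libraries, Foxj1 and Scgb3a2 nearly undetected in both groups, with 1 fragment each in 1 sham library and 0 elsewhere). The gene lower was Tppp3 (85.3 ± 4.82 against 135 ± 4.35 FPKM, log2 fold change -0.67), which held most of the sum, and the gene higher was the club cell gene Scgb1a1 (25.4 ± 2.22 against 4.07 ± 0.825 FPKM, log2 fold change 2.52). Erythroid markers were lower in 2 of 5 and higher in 0 (12819 to 16244 FPKM in the BPVB libraries and 15350.1 to 19086 in the sham libraries). The part of these cells in the changes of Timp3, Timp4 and the other abundant members was not tested.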

How the data were processed

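RNA from 3 BPVB and 3 sham PV samples was sequenced as 150 bp paired-end reads. The authors deposited 1 table of FPKM (fragments scaled by gene length and library total). The study's methods name fastp, HISAT and HTSeq-count and the VAHTS Universal V6 kit, whereas the submitters' processing notes list HISAT2 2.0.5, StringTie 1.3.3b, featureCounts 1.5.0-p3 and DESeq2 1.20.0 and the labels name the NEBNext Ultra kit. Genome build, annotation and strand setting are not given in the sources used here. Columns were matched to the samples by initial and number, and 0 value columns were left unused.

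Groups were compared with limma 3.58.1 in R 4.3.3 (eBayes with trend) on log2(FPKM + 0.5), keeping genes whose 6-library mean reached 0.1 FPKM, after the procedure was tested on simulated data. Whole fragments were recovered from the steps of the FPKM for 100.0% of 17833 genes (tolerance 1e-06 fragments), as the smallest numbers the values allow. A count of 0 was given a limit of 3 fragments, and these limits and the intervals cover counting error only. Nothing in the labels says that the rats came from separate litters, so p-values measure the spread between these samples.

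Alternatives were pseudocounts of 1 and 0.1, a mean FPKM of at least 1 or no filter, median of ratios, TPM, quantile normalization, the replicate block, robust eBayes, voom on the recovered fragments and leaving out each library. Members and lists were chosen with earlier results of these data known. Values per library are given for called members with an absolute log2 fold change of at least 0.5, the Timp genes, the 10 most expressed members and members at 0 in 1 group, and list genes are named by their 4 largest called changes and, where 5 or fewer, those not called. Mmp9, Mmp27 and the genes overlapping members were named after their values were seen. Some genes that this rule names are not reported here. Python 3.11.15 with scipy 1.17.1 was used for the other steps.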

Additional observations from a re-analysis of the deposited data

How the results depend on the processing

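Under 16 alternatives the number of members called higher stayed between 15 and 20 (17 as reported), lower between 5 and 7 (6), past the fold threshold between 3 and 6 (4), and the other pathway genes between 26 and 35 higher (31) and 4 and 6 lower (5), all within 1.5 times. Leaving out 1 library gave 15 to 17 higher and 5 to 6 lower members. Of 23 called members, 20 were called in every alternative that tested them, and Mmp11, Adamtsl5 and Mmp15 were not. Mmp11 also lost its call without a filter on low values, with quantile normalization, with voom and with the replicate block (adjusted p 0.050 to 0.071, 0.029 to 0.12 over all alternatives). Adamtsl5 also lost its call with the median of ratios (0.052), quantile normalization (0.067) and the replicate block (0.056), within 0.016 to 0.11 over all alternatives. Members not called as reported passed with voom (Adamts6, Adamts9, Adamts20 and Mmp17), with TPM (Adamts9, Mmp17 and Mmp23), without a filter (Adamts13) and without 1 library (Mmp23 and Mmp28). The sign reversed only for members that did not pass the test: Adamts14 (-0.05 with quantile normalization, -0.09 to 0.19 without 1 library), Adamts3 (0.03 with voom, -0.22 to 0.11 without 1 library), Adamtsl4 (0.02 with TPM, -0.03 to 0.01) and Mmp24os (-0.01 to 0.06). The fitted folds of the low members moved most, Mmp12 between 2.05 and 6.08, Adamts4 between 1.82 and 3.03, Mmp3 between 0.54 and 5.31, Mmp8 between -2.70 and -0.87, and each stayed under an adjusted p of 0.05 where tested. Deviations of libraries with the same replicate number correlated at 0.03, 0.01 and 0.02, so the numbers were not taken as pairs, and with the replicate block 15 members were higher, 6 lower and 4 past the fold threshold, with 30 pathway genes higher and 5 lower. Depth limits Mmp13, Mmp27, Mmp3, Mmp9, Adamts3, Adamts18 and Mmp8, each under 50 fragments in every library.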
